A study of Homo sapiens with 4 samples.

Results

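The 10 genes described here encode enzymes that modify and crosslink collagen. They are the prolyl 3-hydroxylases P3H1, P3H2 and P3H3, the prolyl 4-hydroxylase alpha subunits P4HA1 and P4HA2, the lysyl hydroxylases PLOD1, PLOD2 and PLOD3, and the lysyl oxidases LOX and LOXL2. They were taken by gene name from the 28189 genes of the tables, and each had 1 row in each table. The set was put together after P3H2 had been seen at a higher level in the knockdown libraries of these same data, so the differences between the groups are given for these genes as a description, and no test of them is used as support. The libraries are 2 from shPTPRN3 cells and 2 from shNC cells. Both groups are U87, an established human glioma cell line, grown in DMEM with serum and infected with lentivirus. The shPTPRN3 cells carry a single short hairpin RNA directed at PTPRN, a receptor-type tyrosine phosphatase family member found in dense-core vesicles, and the shNC cells carry the empty FUGW-H1 vector, which the series' design text calls H1-RFP (WT). Only 1 hairpin was sequenced, so effects of the hairpin other than through PTPRN cannot be told apart from those of the lower PTPRN level. The libraries are called biological replicates, but separate cultures are not named, so the spread behind each p-value may be technical in part or in full.

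Collagen chains are modified in the endoplasmic reticulum before the triple helix folds. Prolyl 4-hydroxylase is a complex of alpha subunits, which carry the active site, and P4HB, and its product, 4-hydroxyproline, stabilises the helix; the prolyl 3-hydroxylases act on few proline residues, and the lysyl hydroxylases make the hydroxylysine that carries sugars and takes part in crosslinks. All 3 kinds of hydroxylase use iron, 2-oxoglutarate and ascorbate. The lysyl oxidases are secreted copper enzymes that oxidise lysine and hydroxylysine side chains outside the cell, which lets neighbouring collagen molecules crosslink. PLOD2, P4HA1, P4HA2 and LOX are known as genes that hypoxia can induce.

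The promoters of P3H2, of the P4HA pair and of LOX are shown because P3H2 led to the choice of the genes, the P4HA genes differed between the groups in opposite directions and LOX has the most matches to the motif searched. Each line gives the 250 bases before a RefSeq start site on the minus strand (GRCh38.p14, the same major build as hg38), read 5′ to 3′, with the letters of the hypoxia response element core, ACGTG or GCGTG on either strand, in capitals; where both strands match, the matches overlap and form 1 run of capitals.
P3H2, first start site, chr3:190122279-190122528: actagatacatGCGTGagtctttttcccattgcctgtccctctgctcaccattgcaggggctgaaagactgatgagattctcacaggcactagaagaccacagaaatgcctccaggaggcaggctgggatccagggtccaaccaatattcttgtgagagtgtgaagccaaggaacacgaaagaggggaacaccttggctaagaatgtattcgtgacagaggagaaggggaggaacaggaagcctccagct
P3H2, second start site, chr3:190120898-190121147: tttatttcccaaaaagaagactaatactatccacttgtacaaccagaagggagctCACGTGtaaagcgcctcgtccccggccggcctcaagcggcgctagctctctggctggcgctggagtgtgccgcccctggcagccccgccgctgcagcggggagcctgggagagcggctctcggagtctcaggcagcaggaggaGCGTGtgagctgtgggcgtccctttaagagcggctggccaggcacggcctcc
P4HA2, chr5:132227092-132227341: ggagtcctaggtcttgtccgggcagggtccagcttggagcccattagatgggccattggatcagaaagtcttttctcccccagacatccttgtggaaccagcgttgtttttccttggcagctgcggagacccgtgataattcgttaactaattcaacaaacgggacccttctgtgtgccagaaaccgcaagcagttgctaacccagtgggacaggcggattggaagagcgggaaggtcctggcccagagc
P4HA1, chr10:73096867-73097116: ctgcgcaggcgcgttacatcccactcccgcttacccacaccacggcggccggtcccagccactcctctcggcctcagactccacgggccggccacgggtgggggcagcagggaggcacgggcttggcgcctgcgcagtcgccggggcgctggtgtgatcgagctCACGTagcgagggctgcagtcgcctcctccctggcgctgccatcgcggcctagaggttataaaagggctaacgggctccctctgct
LOX, most upstream start site, chr5:122078260-122078509: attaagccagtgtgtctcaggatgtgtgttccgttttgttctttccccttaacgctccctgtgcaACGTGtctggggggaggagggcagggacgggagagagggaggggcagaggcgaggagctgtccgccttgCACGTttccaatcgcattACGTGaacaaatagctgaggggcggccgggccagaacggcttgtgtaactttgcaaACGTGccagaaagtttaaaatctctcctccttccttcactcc

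The RefSeq promoter table held 12 windows for 9 of the genes, 3 of them for LOX, of which a pair overlap; LOXL2 had no entry. The core motif occurred in 9 of these 12 windows, those of 6 genes, and in 43.2% of the 35116 windows of the whole table. LOX held 4 matches before its most upstream start site, PLOD2 and the second P3H2 start site 3 each, and P4HA2, PLOD3 and P3H3 none. The windows of P4HA2 and PLOD2 lie inside the measured spans of these genes (hg38 chr5:132190147-132227853 and chr3:146069441-146161495). Start sites further upstream may therefore not be covered for them. The GC box GGGCGG, on either strand, occurred in 6 of the 12 windows against 42.6% of all windows. The TATA box TATAAA occurred in 1, that of P4HA1, against 10.7%, and the AP-1 site TGANTCA in 0 against 6.57%. The 2 P3H2 start sites differ in base composition, with 51.2% G and C and 3 CG dinucleotides before the first and 64.0% and 18 before the second, against medians of 58.0% and 11 over all windows. The FPKM are per gene and do not say which start site was used. A match is a run of letters and not evidence of binding.

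Levels are FPKM, sequenced fragments divided by transcript length and by the number mapped, scaled between libraries by median ratios; they are per transcript length and so can be compared between genes. An estimate of depth, from how wide the intervals of 158 single-exon genes are, was 28.3 M and 13.4 M fragments in the shPTPRN3 libraries and 18.5 M and 12.4 M in the shNC libraries. PTPRN stood at 4.96 and 3.62 scaled FPKM in shPTPRN3 and at 27.6 and 19.8 in shNC, a log2 difference of -2.22 (limma, adjusted p = 0.0592). Of 7 mesenchymal and glioma markers, all were measured above the filter, while 0 of 6 astrocyte and oligodendrocyte-lineage markers were; GFAP and AQP4 were listed at 0 in all 4 libraries, although the GFAP locus overlaps other genes. Of 7 epithelial, blood and endothelial markers only CD68 passed the filter, at 434 and 326 scaled FPKM in shPTPRN3 and 225 and 253 in shNC, while the pan-leukocyte gene PTPRC reached at most 0.212; the part of these levels in the results below was not tested. Bulk RNA cannot tell a change per cell from a change in the number of cells of a state. Across 11010 genes, Spearman's rho of the log2 difference with transcript length was 0.304 for the libraries numbered 1 and -0.0148 for those numbered 2. The longest annotated transcripts of the 10 enzymes, 2844 to 5102 bases, lay between the 36.6th and 72.4th percentiles of these genes.

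P3H2 was the enzyme with the largest difference between the groups. P3H2 (hg38 chr3:189956728-190122437), which 3-hydroxylates proline mainly in type IV and other basement membrane collagens, stood at 7.88 and 6.19 scaled FPKM in shPTPRN3 and at 1.06 and 0.764 in shNC. Both knockdown libraries lay above both controls, by a factor of 5.84 for the closest pair of libraries and 10.3 for the farthest. The deposited intervals, on the same scale, were 7.34 to 8.42 and 5.46 to 6.92 in shPTPRN3 and 0.845 to 1.27 and 0.514 to 1.01 in shNC. Their widths equal those of Poisson counts of about 849 and 287 fragments in shPTPRN3 and 97.9 and 37.6 in shNC, so the control values rest on few reads. These intervals cover error within a library and not the spread between cultures. Group means were 7.03 ± 1.198 in shPTPRN3 and 0.911 ± 0.209 in shNC (SD, n = 2 each), a ratio of 7.72. On the scale of log2(scaled FPKM + 1), which understates the change of low genes, the difference was 2.07 with an SE of 0.31, and 34 of the 11390 genes tested had a larger positive one. P3H2 passed the filter, a mean of at least 1 scaled FPKM, through its level in shPTPRN3. Its rank among the tested genes was at percentiles 51.8 and 44.3 in shPTPRN3 and 5.45 and 2.31 in shNC. The antisense gene P3H2-AS1, which overlaps it by 1474 bases, was at 0.0424 scaled FPKM in 1 shPTPRN3 library and listed at 0 in the others.

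The other prolyl 3-hydroxylases were more abundant and differed less. P3H1, the enzyme that 3-hydroxylates a proline of fibrillar collagen chains in a complex with CRTAP and cyclophilin B, had 25.9 and 20.7 scaled FPKM in shPTPRN3 and 17.1 and 12.2 in shNC. The groups did not overlap, and the closest pair of libraries differed by a factor of 1.21. Its log2 difference was 0.65 with an SE of 0.34, and 0.42 without shNC replicate 2. P3H3, which acts with the lysyl hydroxylase PLOD1 in mouse skin collagen, had 57.6 and 27.9 scaled FPKM in shPTPRN3 and 27.8 and 20.4 in shNC. For P3H3 the lower shPTPRN3 library and the higher shNC library were 1.005-fold apart, and the high value of shPTPRN3 replicate 1 carried most of the difference between the means, 42.8 ± 21.0 in shPTPRN3 and 24.1 ± 5.21 in shNC (SD, n = 2 each). The log2 difference of P3H3 was 0.73 with an SE of 0.43, and it was 0.22 without shPTPRN3 replicate 1 and 1.24 without shPTPRN3 replicate 2. The P3H3 value of shPTPRN3 replicate 1 also lay above its own deposited interval, as did those of PLOD3 and LOXL2 in the same library and 10.8% of points over 10755 genes there, lying on either side of their intervals, against 4.54% to 7.95% in the other libraries.

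Ratios of paralogues within a library do not depend on scaling between libraries. The ratio of P3H2 to P3H1 was 0.304 and 0.299 in shPTPRN3 and 0.0621 and 0.0626 in shNC. These values were close within each group even though the levels of both genes differed between the libraries of a group. P3H2 made up 8.62% and 11.3% of the summed prolyl 3-hydroxylase FPKM in shPTPRN3 and 2.31% and 2.29% in shNC, and P3H3 remained the largest part in every library.

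**Figure D1:**
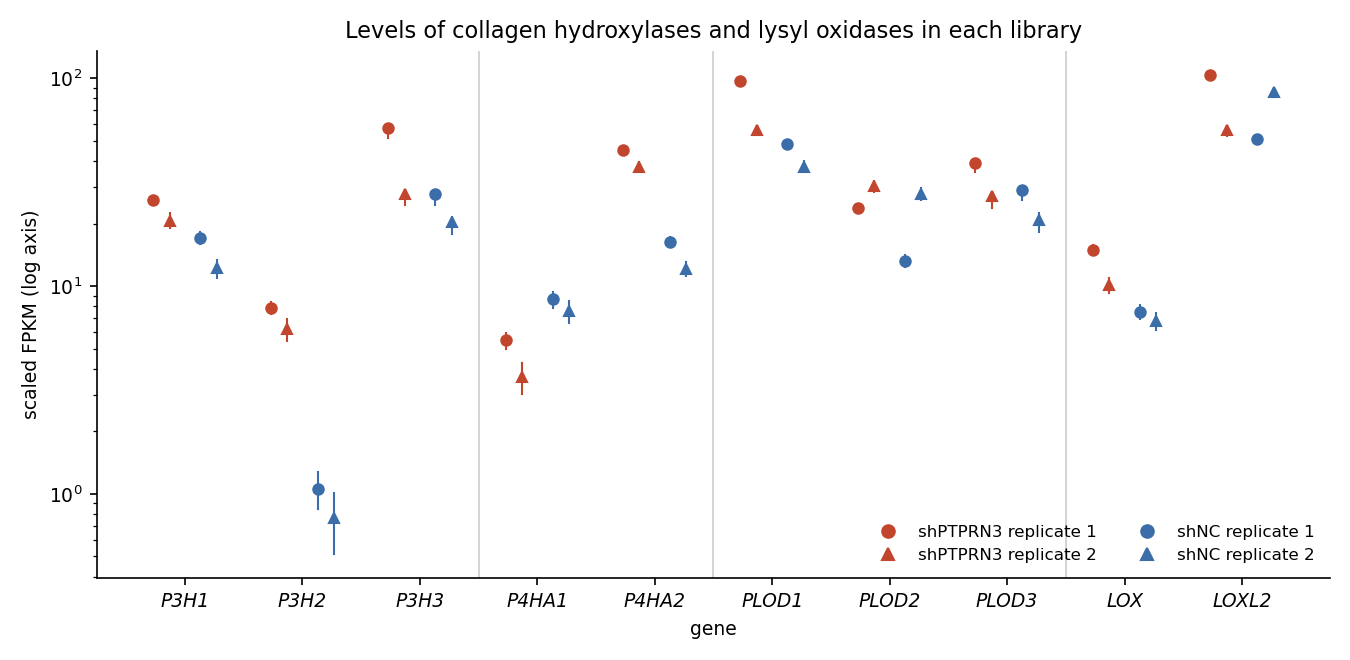
Scaled FPKM (log axis) of the 10 enzymes in each library, with shPTPRN3 in red left of shNC in blue, circles for replicate 1 and triangles for replicate 2, and vertical lines for the deposited confidence intervals. P3H2 stands at 6.19 to 7.88 in shPTPRN3 and 0.764 to 1.06 in shNC, while PLOD2, PLOD3 and LOXL2 overlap between the groups.

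The prolyl 4-hydroxylase alpha subunits differed in opposite directions. P4HA2 (hg38 chr5:132190147-132227853) had 44.9 and 37.4 scaled FPKM in shPTPRN3 and 16.3 and 12.1 in shNC. Both knockdown libraries lay at least 2.29-fold above each control, and the means were 41.2 ± 5.36 in shPTPRN3 and 14.2 ± 2.97 in shNC (SD, n = 2 each). The log2 difference was 1.48 with an SE of 0.34. P4HA1 (hg38 chr10:73007222-73096974), the subunit of the main isoform of the enzyme in most tissues, had 5.48 and 3.64 scaled FPKM in shPTPRN3 and 8.62 and 7.55 in shNC. It was the only one of the 10 enzymes with both shPTPRN3 libraries below both shNC libraries, and its log2 difference was -0.73 with an SE of 0.33. No interval of a P4HA1 or P4HA2 value overlapped one of the other group.

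P4HA2 was thus the more abundant of the pair in all 4 libraries, but by different amounts. The ratio of P4HA2 to P4HA1 was 8.20 and 10.3 in shPTPRN3 and 1.89 and 1.61 in shNC. P4HA1 contributed 10.9% and 8.88% of the summed FPKM of the pair in shPTPRN3 and 34.6% and 38.4% in shNC. The summed level of the pair was 50.4 and 41.0 scaled FPKM in shPTPRN3 and 24.9 and 19.7 in shNC, so the sum was higher in the knockdown libraries although P4HA1 was lower. The third alpha subunit gene, P4HA3, stayed at or below 0.0831 scaled FPKM in every library. P4HB, the protein disulfide isomerase that forms the beta subunit, had 414 and 315 scaled FPKM in shPTPRN3 and 286 and 201 in shNC, far above the alpha subunits; P4HB also serves outside this enzyme.

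**Figure D2:**
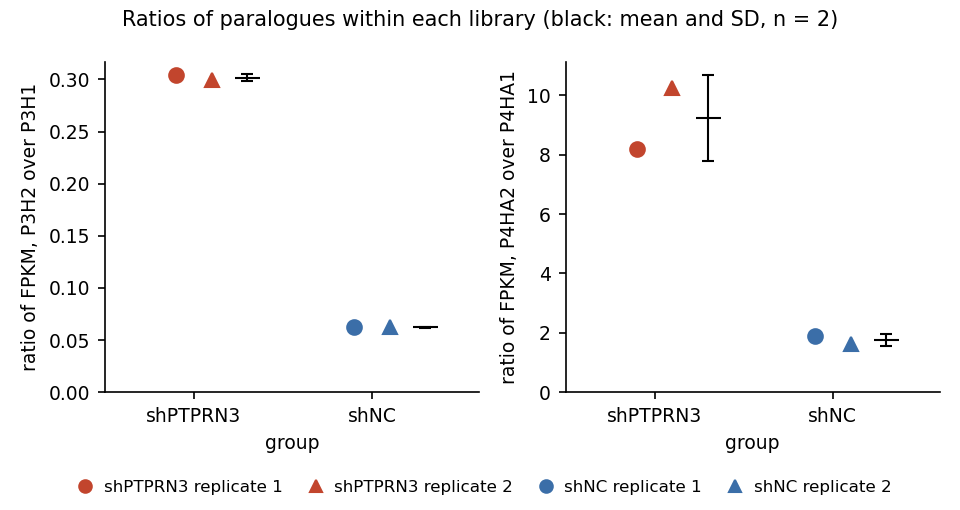
Ratio of P3H2 to P3H1 (left) and of P4HA2 to P4HA1 (right) in each library, with shPTPRN3 left of shNC and the mean and SD of the 2 libraries of a group in black. The P3H2 to P3H1 ratio is 0.304 and 0.299 in shPTPRN3 and 0.0621 and 0.0626 in shNC, and the P4HA2 to P4HA1 ratio 8.20 and 10.3 in shPTPRN3 and 1.89 and 1.61 in shNC.

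Of the lysyl hydroxylases, PLOD1 was separated between the groups and PLOD2 and PLOD3 were not. PLOD1, which hydroxylates lysines in the helical part of the chain, had 97.2 and 56.2 scaled FPKM in shPTPRN3 and 48.2 and 37.6 in shNC. Its closest pair of libraries differed by a factor of 1.16, and its log2 difference was 0.78 with an SE of 0.41, or 0.39 without shPTPRN3 replicate 1. PLOD2, which hydroxylates lysines of the telopeptides, had 23.8 and 30.2 scaled FPKM in shPTPRN3 and 13.2 and 27.8 in shNC. Its libraries numbered 2 were near each other, so that the difference rested on the low value of shNC replicate 1. PLOD3, which also transfers sugars onto hydroxylysine, had 39.2 and 27.0 scaled FPKM in shPTPRN3 and 28.98 and 20.8 in shNC, with overlapping groups. The log2 differences of PLOD2 and PLOD3 were 0.46 with an SE of 0.42 and 0.39 with an SE of 0.37, and each moved when 1 library was left out. That of PLOD2 was -0.049 without shNC replicate 1, 0.97 without shNC replicate 2 and 0.30 without shPTPRN3 replicate 2. That of PLOD3 was 0.13 without shPTPRN3 replicate 1, 0.65 without shPTPRN3 replicate 2, 0.62 without shNC replicate 1 and 0.16 without shNC replicate 2.

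Within the lysyl hydroxylases, PLOD2 was low in both libraries numbered 1, with a share of the summed FPKM of 14.9% and 26.6% in shPTPRN3 and 14.6% and 32.2% in shNC. The ratio of PLOD1 to PLOD3 was 2.48 and 2.08 in shPTPRN3 and 1.66 and 1.80 in shNC, with the groups apart.

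**Figure D3:**
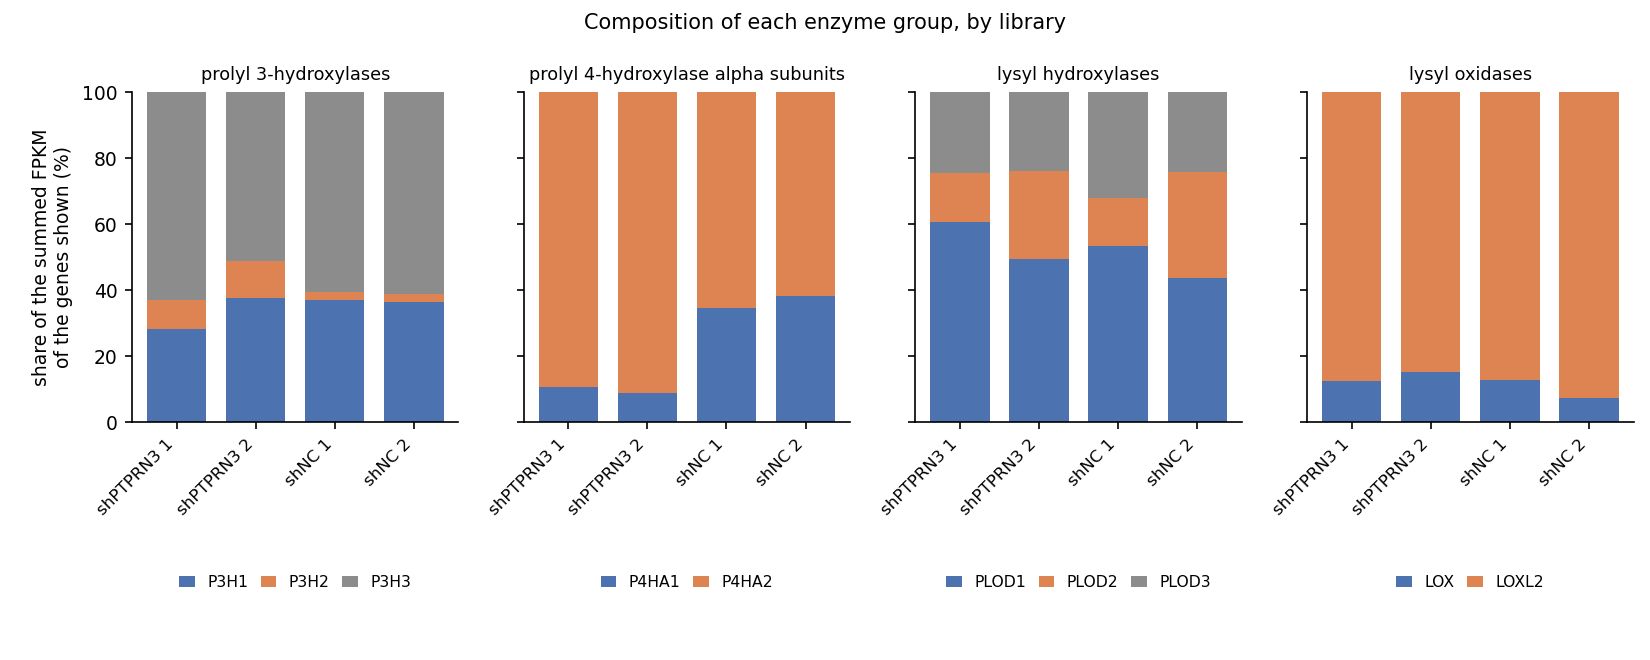
Share (%) of each gene in the summed FPKM of its enzyme group in each library, shPTPRN3 left of shNC, with the libraries numbered 1 and 2. P4HA1 is 10.9% and 8.88% of its pair in shPTPRN3 and 34.6% and 38.4% in shNC, while the PLOD2 share is low in both libraries numbered 1.

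The lysyl oxidases split in the same way. LOX (hg38 chr5:122063195-122078259), the founding member of the family, had 15.0 and 10.1 scaled FPKM in shPTPRN3 and 7.51 and 6.81 in shNC. The groups did not overlap, the closest pair of libraries differed by a factor of 1.35, and the log2 difference was 0.71 with an SE of 0.33, or 0.45 without shPTPRN3 replicate 1. LOXL2, a relative with scavenger receptor domains that acts on type IV collagen, had 104 and 56.6 scaled FPKM in shPTPRN3 and 51.2 and 85.9 in shNC. One library of each group was high and the other low, so no direction can be given: the log2 difference of 0.21, with an SE of 0.46, was -0.16 without shNC replicate 1 and -0.23 without shPTPRN3 replicate 1. LOXL2 was 87.4% and 84.8% of the sum of the pair in shPTPRN3 and 87.2% and 92.7% in shNC.

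In order of mean level, LOXL2 and PLOD1 came first in both groups, at 80.3 and 76.7 scaled FPKM in shPTPRN3 and 68.6 and 42.9 in shNC. P4HA2 was the fourth in shPTPRN3 and the seventh in shNC. P3H2, at 7.03 in shPTPRN3 and 0.911 in shNC, was the ninth in shPTPRN3, above P4HA1 at 4.56, and the last in shNC, below LOX at 7.16 and P4HA1 at 8.09. In shPTPRN3 neighbours in this order overlapped in their ranges over the 2 libraries from LOXL2 down to P3H1, and the steps from P3H1 to LOX, from LOX to P3H2 and from P3H2 to P4HA1 were apart. In shNC, PLOD3, P3H3, PLOD2, P3H1 and P4HA2 overlapped in turn, and the other steps were apart.

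Across the set, 6 of the 10 enzymes had both shPTPRN3 libraries above both shNC libraries, against 21.5% of the 11390 genes tested. In 1 enzyme both lay below, against 23.1%. P3H3 is one of the 6 only after scaling. Its FPKM as deposited were 26.3 in shPTPRN3 replicate 2 and 28.8 in shNC replicate 1, so that the groups overlapped. The median log2 difference was 0.68 over the 10, of which 9 were above 0, and -0.01 over all genes tested. By limma, 0 of the 10 were called at an adjusted p under 0.05 over all genes, against 0.421% of all genes (9 higher, 39 lower), and 2, P3H2 and P4HA2, had an unadjusted p under 0.05, against 13.4%. All 10 passed the filter. Since the genes were chosen on this contrast, nothing is read from these counts.

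The partners of the hydroxylases and other helpers of collagen folding were listed with earlier results of these data known, so nothing is read from their counts. In 10 of the 11 tested the log2 difference was above 0, with 1 large exception, while the median over all genes tested was -0.01. Of the 11 tested out of 13 listed, 7 had both shPTPRN3 libraries above both shNC libraries, against 21.5% of all genes tested. In 1 both lay below, against 23.1%. The median log2 difference was 0.59, 0 were called over all genes by limma, and 4 with a higher and 1 with a lower level had an unadjusted p under 0.05, against 13.4% of all genes in either direction. The exception was CRTAP, the non-enzymatic partner of P3H1, with 14.5 and 8.28 scaled FPKM in shPTPRN3 and 54.1 and 67.1 in shNC. Its log2 difference was -2.35 with an SE of 0.38 (limma, adjusted p = 0.0637), close to that of PTPRN in size. The ratio of P3H1 to CRTAP was 1.79 and 2.50 in shPTPRN3 and 0.315 and 0.182 in shNC. PPIB, cyclophilin B and the third part of that complex, overlapped between the groups, at 531 and 299.5 scaled FPKM in shPTPRN3 and 381 and 215 in shNC.

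COLGALT1, which adds galactose to the hydroxylysine made by the lysyl hydroxylases, had 184 and 140 scaled FPKM in shPTPRN3 and 45.6 and 40.6 in shNC. Its log2 difference was 1.88 with an SE of 0.37 (limma, adjusted p = 0.0867), and its ratio to PLOD3, which adds the next sugar, was 4.69 and 5.20 in shPTPRN3 and 1.57 and 1.95 in shNC. FKBP10, a prolyl isomerase of collagen folding, had the smallest difference of the list, 0.33 with an SE of 0.50. SERPINH1, the collagen chaperone HSP47, had 149 and 145 scaled FPKM in shPTPRN3 and 56.3 and 39.4 in shNC (log2 difference 1.62; limma, adjusted p = 0.125). P3H4, a family member without hydroxylase activity that works with P3H3 and PLOD1 in mice, had 44.0 and 30.8 in shPTPRN3 and 20.2 and 15.4 in shNC (log2 difference 1.02; limma, adjusted p = 0.286). PPIB, P4HB, SERPINH1, P3H4 and P4HA3 here, and LOXL1, COL4A1 and COL4A2 below, were picked after their values were seen.

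Of 11 further genes of crosslinking and procollagen processing, 5 were tested. Of these, 2 had both shPTPRN3 libraries above both shNC libraries, against 21.5% of all genes tested, and 1 had both below, against 23.1%. The median log2 difference was 0.43, and 0 were called by limma, with 2 higher and 0 lower that had an unadjusted p under 0.05, against 13.4% of all genes; nothing is read from counts over 5 genes. LOXL3, another lysyl oxidase, had 36.6 and 29.2 scaled FPKM in shPTPRN3 and 13.95 and 7.19 in shNC (log2 difference 1.61; limma, adjusted p = 0.142), but its locus overlaps DOK1 and HTRA2, both expressed, and without the strand setting their reads cannot be told apart with certainty. PCOLCE2, an enhancer of procollagen C-proteinase, had 21.4 and 17.9 in shPTPRN3 and 6.86 and 5.27 in shNC (log2 difference 1.55; limma, adjusted p = 0.0965). BMP1, the C-proteinase, had the smallest difference, 0.15. LOXL1 was the gene with both shPTPRN3 libraries lower, at 36.8 and 17.5 scaled FPKM, with 39.0 and 38.2 in shNC.

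Of 17 listed collagen chains, the substrates of these enzymes, 11 were tested and 10 of them had a log2 difference above 0, with a median of 1.07. In 9 both shPTPRN3 libraries lay above both shNC libraries, against 21.5% of all genes tested, and in 1 both lay below, against 23.1%. COL5A1 and COL11A1 are among the 9, but passed the filter only through shPTPRN3, with means of 0.435 and 0.301 in shNC. Nothing is therefore read from the counts of this list. By limma 0 were called, and 6 higher chains, these 2 included, and 0 lower had an unadjusted p under 0.05, against 13.4% of all genes. The largest were the type I chains COL1A2, at 323 and 369 scaled FPKM in shPTPRN3 and 67.4 and 86.5 in shNC, and COL1A1, at 34.9 and 15.0 in shPTPRN3 and 7.52 and 5.33 in shNC, and the smallest was COL6A3 (log2 difference 0.56). The type IV chain COL4A1 stayed at or below 0.0693 scaled FPKM and COL4A2 at or below 1.34. The summed FPKM of the 10 enzymes divided by that of the listed chains was 0.434 and 0.348 in shPTPRN3 and 0.666 and 0.591 in shNC. The sum over the enzymes was 421 and 276 scaled FPKM in shPTPRN3 and 220 and 232 in shNC. That over the chains was 969 and 793 in shPTPRN3 and 330 and 392 in shNC. A few abundant genes carry much of both sums, among them COL1A2 for the chains. For the enzymes LOXL2, which gave no direction, had 104 and 56.6 in shPTPRN3 and 51.2 and 85.9 in shNC. The ratio of the sums therefore does not describe each enzyme.

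**Figure D4:**
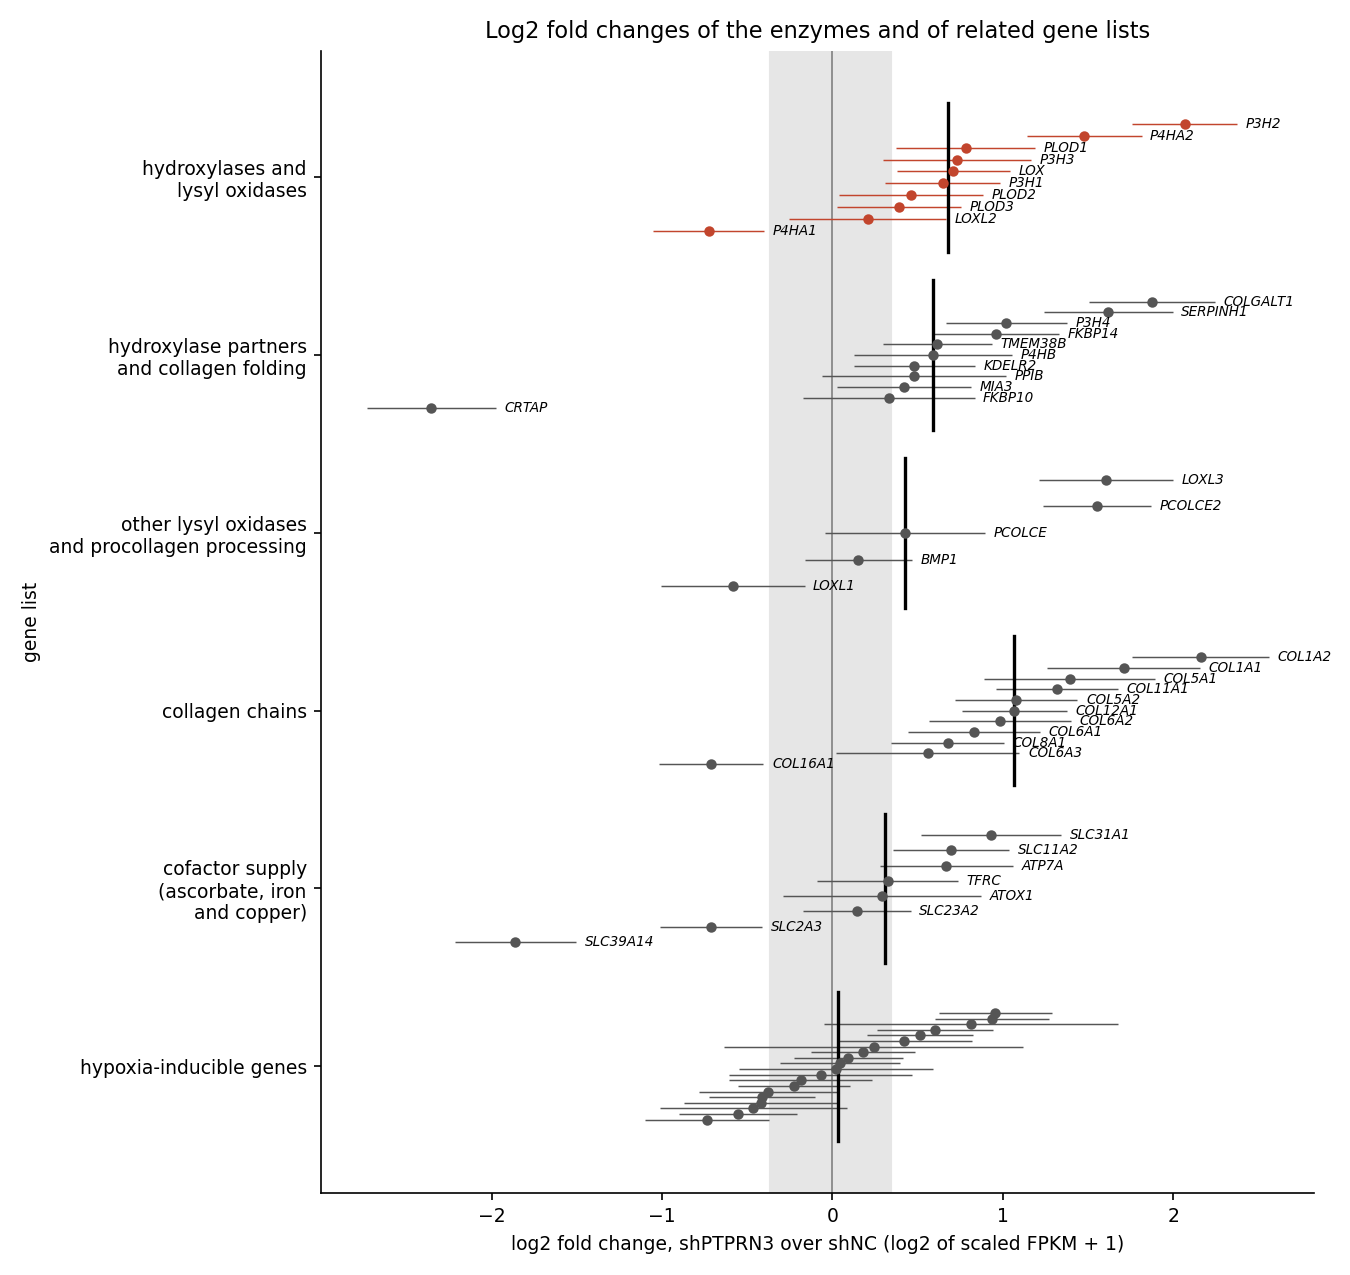
Log2 difference, shPTPRN3 minus shNC, of log2(scaled FPKM + 1), with its SE, for each tested gene of the 10 enzymes (red) and of 5 related lists (grey); the black bar is the median of a list and the grey band the interquartile range of all tested genes. The enzymes have a median of 0.68 with P4HA1 at -0.73, CRTAP stands at -2.35, and the hypoxia-inducible genes, unlabelled, have a median of 0.03.

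Of 21 hypoxia-inducible genes other than the enzymes, 20 were tested. In 5 both shPTPRN3 libraries lay above both shNC libraries, against 21.5% of all genes tested, and in 5 both lay below, against 23.1%, so both counts were near the shares over all genes. The median log2 difference was 0.03, 0 were called by limma, and 2 higher and 0 lower had an unadjusted p under 0.05, against 13.4% of all genes. Their log2 differences ran from -0.74 to 0.96. The 4 enzyme genes of this kind had log2 differences of 1.48 (P4HA2), 0.71 (LOX), 0.46 (PLOD2) and -0.73 (P4HA1).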

How the data were processed

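RNA from 2 shPTPRN3 and 2 shNC libraries of U87 cells was sequenced after a stranded mRNA preparation, per the labels' protocols. The submitters' processing notes name STAR 2.6.0b-1, Cufflinks 2.2.1.2, FastQC 0.72 and the hg38 build, while the annotation and strand setting, not given in the sources used here, bear on overlapping genes. Each deposited table has 33646 rows of FPKM with their confidence intervals, per the file headers, and no counts. FPKM rest on an assumed transcript length and on the splitting of reads between overlapping genes.

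Left out were 651 rows without the status OK throughout, and the rest were summed per gene (27940 genes), and FPKM were divided by median-ratio factors (1.05 and 0.943 for shPTPRN3, 1.04 and 0.974 for shNC) over 9988 genes. The 11390 genes with a mean of at least 1 scaled FPKM were fitted with limma 3.58.1 (R 4.3.3) on log2(scaled FPKM + 1), eBayes with a trend, two-sided, Benjamini-Hochberg adjustment over all genes, threshold 0.05; the fit had 2 residual and 4.94 prior degrees of freedom. On simulated data the fit recovered 1 of 67 changes of 1 on the log2 scale. It recovered 24 of 67 changes of 2 and 49 of 66 changes of 3, with 2 false calls. A gene or list without a call is therefore not shown to be unchanged. Named genes were the 10 enzymes, PTPRN, the 2 largest and the smallest differences of each list of collagen or cofactor genes where none was called, and the 5 genes nearest to P3H2 in pattern; others are named as chosen after their values were seen. The enzymes and lists were chosen with earlier results of these data known. Promoter sequences are from RefSeq (GRCh38.p14), matched by symbol, and transcript lengths from GENCODE 29. Positions are given from 1. Alternatives covered scaling, pseudocount, filters, row status, genes listed at 0, a replicate block, each library left out and, added after seeing the data, removal of length and GC trends. Python 3.11.15, pandas 2.3.3, numpy 2.4.6 and matplotlib 3.10.9 were used.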

Additional observations from a re-analysis of the deposited data

How the results depend on the processing

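Of the 48 genes called by limma in all, the number was 31 on FPKM as deposited, 23 with a pseudocount of 0.1, 8 with a mean of at least 5 FPKM, 0 with no filter on low values (2163 at an unadjusted p under 0.05), 217 without genes listed at 0, 240 with length and GC trends removed, and 39 to 179 with 1 library left out, highest without shPTPRN3 replicate 1. The median log2 difference of the enzymes was 0.80 on TPM and 0.42 to 0.89 with 1 library left out, lowest without shPTPRN3 replicate 1. The direction changed for LOXL2 (-0.16 without shNC replicate 1, -0.23 without shPTPRN3 replicate 1) and PLOD2 (-0.049 without shNC replicate 1), with 1 library left out at most 0.64 for LOXL2 and 0.97 for PLOD2; the other 8 enzymes kept theirs in the 13 alternatives, or the 12 in which P3H2 was tested. P3H2 ran from 1.92 to 2.82, the highest with a pseudocount of 0.1, and P4HA2 from 1.28 to 1.68. P3H2 was called by limma at adjusted p = 0.0269 without genes listed at 0 and at 0.0287 with trends removed, a fit added after seeing the data. In no other unblocked fit of all 4 libraries was any of the 10 called. Since P3H2 led to the choice of the genes, nothing is read from these calls. The causes of the differences between settings were not tested.

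The replicate numbers are not stated to pair the libraries, and 2 pairs cannot show it; the difference between replicates 1 and 2 correlated at 0.519 between the groups across 11390 genes. With the replicate number as a block 2163 of the 11390 genes were called, 955 higher and 1208 lower. Among them were 4 of the 10 enzymes, P3H2 (limma, adjusted p = 6.31e-06), P4HA2 (0.000246), PLOD1 (0.0441) and P4HA1 (0.0449). The blocked fit leaves fewer residual degrees of freedom than the main one. Since the genes were chosen on this contrast, nothing is read from these calls. The control level of P3H2 rests on few reads, as its intervals in shNC correspond to 97.9 and 37.6 fragments.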

Other observations

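Of 9 transporters and carriers of ascorbate, iron and copper, 8 were tested, with a median log2 difference of 0.31, 2 with both shPTPRN3 libraries above both shNC libraries, against 21.5% of all genes tested, and 2 with both below, against 23.1%, so both counts were near the shares over all genes. By limma 0 were called, and 0 higher and 2 lower had an unadjusted p under 0.05, against 13.4% of all genes. SLC39A14, a zinc and iron importer, had 10.5 and 10.4 scaled FPKM in shPTPRN3 and 32.0 and 51.5 in shNC (log2 difference -1.86; limma, adjusted p = 0.0821). SLC31A1, the copper importer CTR1, had 15.3 and 29.8 in shPTPRN3 and 8.92 and 12.9 in shNC (log2 difference 0.93), and the ascorbate transporter SLC23A2 the smallest difference, 0.14.

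Over the 4 libraries, the 5 genes whose centred log2 values were nearest to those of P3H2, of 11124 compared, were BTG2, COLGALT1, ITGA5, C1S and C12orf76, with root mean square differences of 0.0881 to 0.137. With 2 libraries in each group such nearness mostly reflects a similar difference between the groups. ITGA5, the integrin alpha chain of the fibronectin receptor, had 397 and 332 scaled FPKM in shPTPRN3 and 80.0 and 83.5 in shNC. BTG2, the nearest, had 22.9 and 16.6 in shPTPRN3 and 3.91 and 3.01 in shNC. Of these 5 genes only COLGALT1 is on a list described above.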
